A study of Homo sapiens with 4 samples.

Results

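Integrin and laminin chain genes were followed in H9, a widely used line of human embryonic stem cells, after knockdown of UPF1, the RNA helicase at the centre of nonsense-mediated mRNA decay. The members were all genes of the deposited table whose symbol has the form of an integrin alpha or beta subunit or of a laminin alpha, beta or gamma chain. They numbered 26 of 15942 genes, of which 25 are described here (15 integrin genes and 10 laminin genes), and all 25 passed the filter on low counts that left 15557 genes tested. Knockdown was represented by 2 libraries from cells given a small interfering RNA (siRNA) against UPF1, called siUPF1 replicates 1 and 2. They were set against 2 libraries from cells given an siRNA against luciferase, an insect enzyme with no human transcript to act on, called siLuc a and siLuc b because the table heads both columns alike. All cells had grown on Matrigel, a basement membrane extract that itself contains laminin protein, in E8 medium. The treatment text shared by all libraries names actinomycin D and another siRNA target, UPF3A, and assigns no time to a library. The labels do not tie the libraries to separate cultures, so p-values reflect the spread between libraries, and that spread may be only technical.

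Integrins are cell surface receptors, each made of an alpha and a beta subunit, that tie the extracellular matrix to the actin cytoskeleton. The alpha subunit largely sets which ligand is bound, and the beta subunit carries most of the contacts with the cytoplasmic adhesion complex. Laminins are secreted trimers of an alpha, a beta and a gamma chain and form the sheet of the basement membrane on which epithelia, and pluripotent cells in culture, attach and survive. In human pluripotent cells the laminin receptor of the alpha6 and beta1 subunits is known as a main means of attachment.

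UPF1 transcripts stood at 60.8 and 78.2 counts per 1000000 (CPM, scaled between libraries) in the siUPF1 libraries, against 219 and 205 CPM in siLuc, a log2 fold change of -1.60 (SE 0.07, edgeR adjusted p = 1.06e-102). Library totals ran from 8887239 to 11200973 counts, and the 25 genes together took 27820 and 31558 of the counts in siUPF1, against 23961 and 26719 in siLuc. All 10 markers of human embryonic stem cells were present, at 83.4 CPM or more. Their summed level was 1919 and 1784 CPM in siUPF1, against 2213 and 2071 CPM in siLuc. With edgeR 6 of the 10 fell at an adjusted p of 0.05, where 9.14% of all tested genes did. Log2 fold changes of the 10 ran from -0.30 (DNMT3B) to -0.13 (TDGF1). Their values in the alternative fits are not given here, and the part of read density in them was not tested. Of 4 markers of stratified epithelium, a tissue whose laminin contains the alpha3 and beta3 chains, only KRT17 was measured here, at 2.50 and 1.43 CPM in siUPF1, against 1.36 and 1.60 CPM in siLuc. Of 7 leukocyte markers, 2 were measured and summed to 3.60 and 2.58 CPM in siUPF1, against 6.11 and 4.59 CPM in siLuc, and CD53 fell (log2 fold change -0.77, edgeR adjusted p = 0.0413). Mesenchymal markers (5 of 8 measured) summed to 569 and 546 CPM in siUPF1, against 547 and 532 CPM in siLuc. Of these 5, PDGFRB and TWIST1 rose, where 16.8% of all tested genes did. Endothelial markers (2 of 5) summed to 218 and 212 CPM in siUPF1, against 227 and 243 CPM in siLuc, and the 1 measured endoderm marker of 4, FOXA2, stood at 0.600 and 0.534 CPM in siUPF1, against 4.98 and 4.09 CPM in siLuc. The part of these cell types in the results was not tested. In bulk RNA, fewer cells of a type and less RNA per cell cannot be told apart.

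The 25 genes spanned a wide range of levels. Levels are given per kilobase of transcript, which allows for length. Reads per base did not exceed 1.12 in any gene with a mean of at least 100 counts. Differences between abundant genes, and ratios and sums on this scale, may therefore be understated. ITGB1 had the highest level of the integrin genes, followed by ITGB5 and ITGA6. Its mean was 64.2 CPM per kb in siUPF1 and 68.2 CPM per kb in siLuc. ITGA3, ITGA5, ITGA7 and ITGAV lay between 16.6 and 29.3 CPM per kb, and ITGA5 and ITGA7 overlapped in siLuc. The other 8 integrin genes lay below 10 CPM per kb. Among laminin genes, LAMC1, LAMB1, LAMB2, LAMA1 and LAMA5 lay between 19.9 and 42.7 CPM per kb, with LAMA1 and LAMB2 overlapping in siLuc. LAMC3 lay between 8.82 and 12.3 CPM per kb, and LAMA2, LAMA4, LAMB3 and LAMA3 were below 4 CPM per kb. The chains of the embryonic laminins (LAMA1 or LAMA5 with LAMB1 or LAMB2 and LAMC1) were those with the highest transcript levels of their family.

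**Figure D1:**
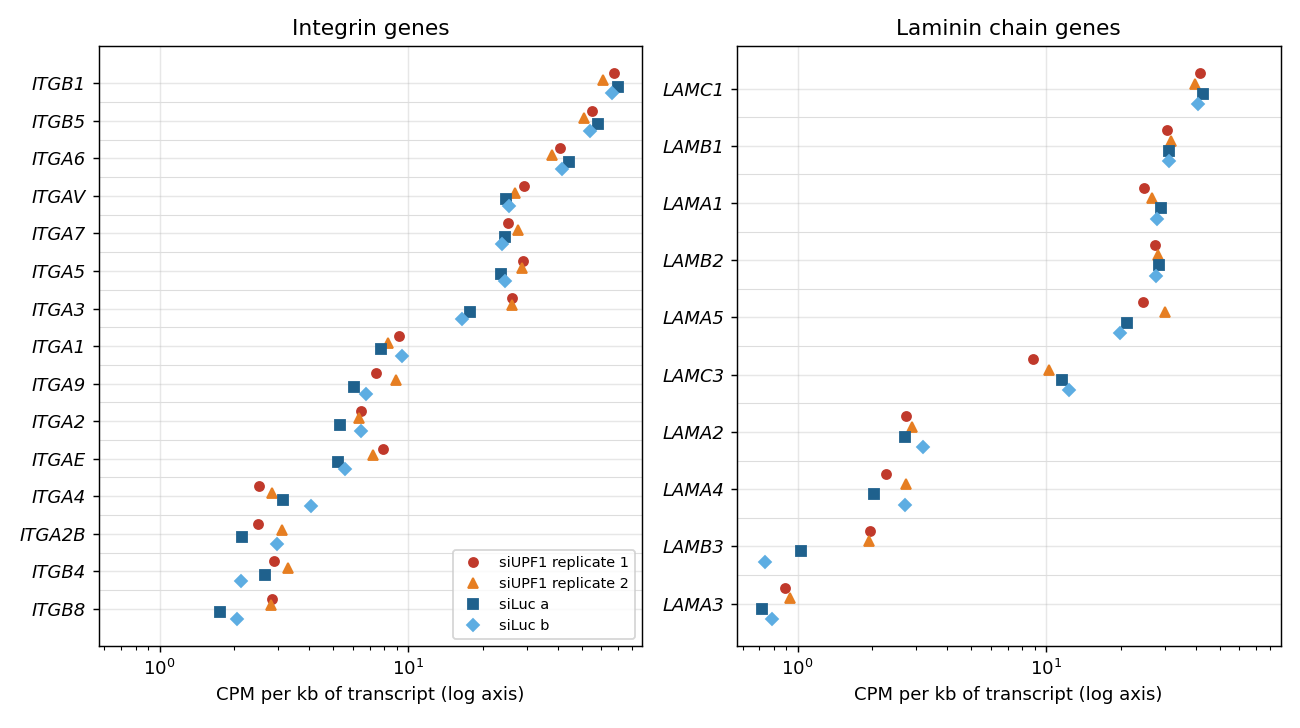
Level of each integrin gene (left) and laminin chain gene (right) in each library, in CPM per kb of transcript on a log axis, with genes ordered by their siLuc mean. Points are single libraries. ITGA3 and LAMB3 show both siUPF1 libraries to the right of both siLuc libraries.

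Of the 15 integrin genes, 6 rose after UPF1 knockdown, 1 fell and 8 did not pass, and of the 10 laminin genes, 2 rose, 1 fell and 7 did not pass (edgeR quasi-likelihood test, adjusted p of 0.05). Over all tested genes 16.8% rose and 9.14% fell, against which 40.0% of the integrin genes and 20.0% of the laminin genes rose. The median log2 fold change was 0.14 for integrin genes and -0.01 for laminin genes, against -0.01 over all tested genes. Both siUPF1 libraries lay above both siLuc libraries for 11 of the 25 members, where this held for 32.3% of all tested genes, and below both for 4, where it held for 31.1%. The risers were ITGA3, ITGA5, ITGA9, ITGAE, ITGB4, ITGB8, LAMA5 and LAMB3, with log2 fold changes of 0.26 to 1.14. The fallers were ITGA4 and LAMC3. Without siLuc a, 3 of the 8 risers passed (ITGA3, LAMA5 and LAMB3), where 9.19% of all genes rose and 3.51% fell (1444 and 552 genes). That fit gave log2 fold changes of 0.23 for ITGA5, 0.27 for ITGA9, 0.44 for ITGAE, 0.45 for ITGB8 and 0.54 for ITGB4. In these 5 genes both siUPF1 libraries lay above siLuc b, so their direction could not change without siLuc a. Without siLuc b, 6 risers and no faller passed, where 10.1% of all genes rose and 3.89% fell (1583 and 610 genes). With DESeq2 in place of edgeR 5 members rose and none fell, where 8.35% of all genes rose and 3.05% fell. At an unadjusted p under 0.05 with DESeq2, 2 of the 25 members fell, against 1270 of the 15942 genes of the table.

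**Figure D2:**
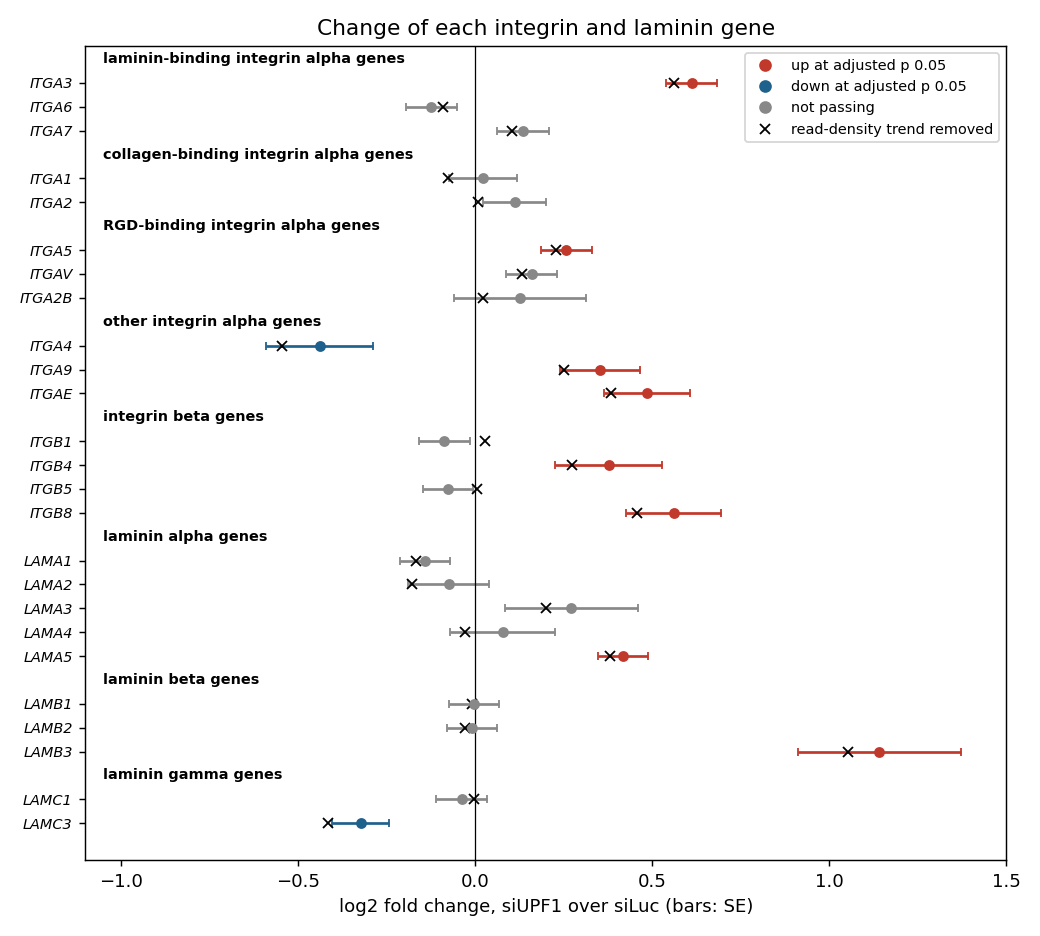
Log2 fold change of each member, siUPF1 over siLuc, grouped by role, with bars of 1 SE. Red points rose and blue points fell at an adjusted p of 0.05, grey points did not pass, and crosses give the value with the read-density trend removed. LAMB3 and ITGA3 stand farthest to the right, at 1.14 and 0.61.

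Read density, the number of reads per base of transcript, moved with these values. No gene with a mean of at least 100 counts exceeded 1.12 reads per base, and the spread of fold changes narrowed as density rose. Among 1072 genes over 0.5 reads per base, the 5th and 95th percentiles of the log2 fold change were -0.23 and 0.10, with a median of -0.12, while among 3384 genes up to 0.05 reads per base they were -0.88 and 1.23, with a median of 0.07. ITGB1 (0.661 reads per base) and ITGB5 (0.544) were the members in the densest class, and 8 members lay in the sparsest. With the trend on density removed, the median over all genes was -0.03, against -0.01, and the split of calls over all genes went to 2184 up and 2052 down (14.0% and 13.2%), against 2613 and 1422. In that fit 6 members rose and 3 fell, since ITGB4 and ITGA9 no longer passed and LAMA1 did. The fit recentres each density class and does not widen the range of dense genes. With the trend removed the log2 fold change was 0.03 for ITGB1 and 0.006 for ITGB5, against -0.09 and -0.08 in the main fit. Neither gene passed in either fit. The part of read density in the values of ITGB1 and ITGB5 was not tested.

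**Figure D3:**
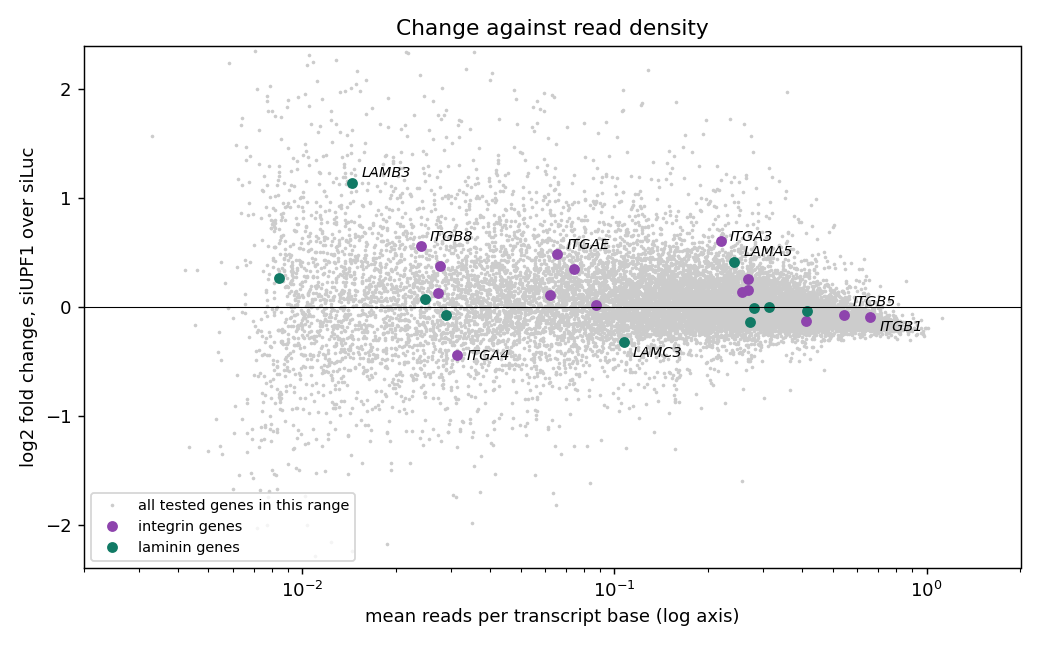
Log2 fold change, siUPF1 over siLuc, against mean reads per base of transcript (log axis) for all tested genes within the plotted range (grey), integrin genes (purple) and laminin genes (green). The grey cloud narrows to the right, where ITGB5 and ITGB1 lie at 0.544 and 0.661 reads per base.

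Among the alpha subunits of laminin receptors, ITGA3 rose while ITGA6 and ITGA7 did not pass. ITGA3, whose protein pairs with beta1 and binds laminins with the alpha3 or alpha5 chain, had 131 CPM in each of the siUPF1 libraries, against 88.6 and 82.9 CPM in siLuc. The groups did not overlap, and the log2 fold change was 0.61 (SE 0.07, edgeR adjusted p = 1.94e-15). ITGA3 passed under all 11 alternative fits, with adjusted p from 4.55e-15 to 0.000173 (highest with the density trend removed). ITGA6, the partner of beta1 and beta4, had 233 and 217 CPM in siUPF1, against 253 and 238 CPM in siLuc. Both siUPF1 libraries were lower, by a margin that did not pass (log2 fold change -0.12, SE 0.07, edgeR adjusted p = 0.2). ITGA7, a laminin receptor best known from muscle, had 96.8 and 106 CPM in siUPF1, against 93.7 and 91.3 CPM in siLuc. Both siUPF1 libraries were higher, but the difference did not pass (log2 fold change 0.14, SE 0.07, edgeR adjusted p = 0.162), other than without siUPF1 replicate 1 (adjusted p = 0.0319).

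Within each library, the ratio of ITGA3 to ITGA6 transcripts per kb was 0.637 and 0.686 in siUPF1, against 0.399 and 0.396 in siLuc. The summed level of the 3 laminin-binding alpha genes was 92.5 and 92.1 CPM per kb in siUPF1, against 86.6 and 82.2 CPM per kb in siLuc. ITGA6 remained the most abundant of the 3 in every library. These ratios and sums are descriptions, chosen after the values were seen.

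Among beta subunits, ITGB8 and ITGB4, both low in level, rose, and ITGB1 and ITGB5 did not pass. ITGB1, the shared partner of most of the alpha subunits here, had 253 and 226 CPM in siUPF1, against 261 and 248 CPM in siLuc, with overlapping groups (log2 fold change -0.09, SE 0.07, edgeR adjusted p = 0.392). ITGB5, which pairs with alphaV to bind vitronectin, had 240.5 and 223 CPM in siUPF1, against 253 and 235 CPM in siLuc, also overlapping. ITGB8, another alphaV partner, known for releasing active TGF-beta from its latent complex, had 24.5 and 24.2 CPM in siUPF1, against 15.2 and 17.8 CPM in siLuc. Its groups did not overlap (log2 fold change 0.56, SE 0.13, edgeR adjusted p = 0.000278), and the call was lost without siLuc a (adjusted p = 0.072, the highest of its 11 alternatives, the lowest being 0.000268). ITGB4, the partner of alpha6 in hemidesmosomes, had 16.2 and 18.5 CPM in siUPF1, against 14.9 and 12.0 CPM in siLuc. It passed narrowly (log2 fold change 0.38, SE 0.15, edgeR adjusted p = 0.0488) and in 1 of 11 alternative fits, that without siUPF1 replicate 1, with adjusted p between 0.013 and 0.536 over the 11. Without siLuc b its value was 0.21. The ITGB5 to ITGB1 ratio per kb was 0.813 and 0.841 in siUPF1, against 0.831 and 0.808 in siLuc.

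Among subunits that bind the RGD motif of fibronectin and vitronectin, ITGA5 rose and ITGAV and ITGA2B did not pass. ITGA5, the fibronectin receptor subunit, had 122 and 120.4 CPM in siUPF1, against 99.1 and 103 CPM in siLuc, without overlap (log2 fold change 0.26, SE 0.07, edgeR adjusted p = 0.0024). It passed in 8 of 11 alternative fits and was lost with DESeq2 (adjusted p = 0.0525), without siLuc a (0.145, the highest) and without siLuc b (0.0529), the lowest being 0.00272. ITGAV had 205 and 189 CPM in siUPF1, against 173 and 178 CPM in siLuc, both siUPF1 libraries being higher. It did not pass (log2 fold change 0.16, SE 0.07, edgeR adjusted p = 0.0789), except without siUPF1 replicate 2 and at a threshold of 0.1. ITGA2B, best known from platelets, had 8.30 and 10.3 CPM in siUPF1, against 7.13 and 9.87 CPM in siLuc, with overlapping groups. The platelet marker list held 1 measured gene of 4, GP1BA, at 1.90 and 3.21 CPM in siUPF1, against 2.60 and 2.69 CPM in siLuc.

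Collagen-binding subunits did not pass. ITGA1 had 43.0 and 38.8 CPM in siUPF1, against 36.2 and 44.0 CPM in siLuc, and ITGA2 had 50.3 and 49.3 CPM in siUPF1, against 41.4 and 50.5 CPM in siLuc. In both genes the groups overlapped. In RefSeq 5 of the 6 transcripts of ITGA2 are noncoding, and in GENCODE release 29 it has 5 transcripts of the nonsense-mediated decay class. Its log2 fold change was 0.11 (SE 0.09, edgeR adjusted p = 0.372).

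The remaining alpha subunits moved in both directions. ITGA4, a receptor for fibronectin and VCAM1 known from leukocytes and neural crest, had 12.5 and 14.2 CPM in siUPF1, against 15.7 and 20.3 CPM in siLuc. It fell (log2 fold change -0.44, SE 0.15, edgeR adjusted p = 0.0173), though siLuc a lay close to siUPF1 replicate 2. ITGA4 passed in 8 of 11 alternative fits. It was lost with DESeq2 (adjusted p = 0.21), without siUPF1 replicate 1 (the value then being -0.36) and without siLuc b (-0.24). The leukocyte marker CD53 also fell, and the part of leukocyte RNA in the ITGA4 value was not tested. ITGA9, a receptor for tenascin-C among others, had 29.4 and 35.2 CPM in siUPF1, against 23.9 and 26.7 CPM in siLuc (log2 fold change 0.35, SE 0.11, edgeR adjusted p = 0.0108). Both siUPF1 libraries were higher, and ITGA9 passed in 7 of 11 alternative fits. It was lost with DESeq2 (adjusted p = 0.187), with the density trend removed (0.0639), without siUPF1 replicate 2 (0.215, the value then being 0.21) and without siLuc a (0.265). ITGAE, whose protein binds E-cadherin and is best known from intraepithelial lymphocytes, had 30.5 and 27.9 CPM in siUPF1, against 20.1 and 21.4 CPM in siLuc. The groups were apart (log2 fold change 0.49, SE 0.12, edgeR adjusted p = 0.000676), and ITGAE passed in 10 of 11 alternative fits, all but that without siLuc a (adjusted p = 0.051). Exons of ITGAE, taken over all its annotated transcripts, overlap those of HASPIN on the opposite strand in GENCODE release 29. Whether the counting used strand is not given, so reads in the shared stretch cannot be told apart. The part of such reads in the ITGAE counts was not tested.

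Among laminin alpha chains, LAMA5 rose and the other 4 did not pass. LAMA5, the chain of the main laminins of pluripotent cells and many mature basement membranes, had 278 and 339 CPM in siUPF1, against 238 and 224 CPM in siLuc. Both siUPF1 libraries were higher, replicate 2 more so (log2 fold change 0.42, SE 0.07, edgeR adjusted p = 1.17e-07). LAMA5 passed under all 11 alternative fits, with adjusted p from 1.43e-11 to 0.0433 (highest with DESeq2). Its value was 0.27 without siUPF1 replicate 2 and 0.55 without siUPF1 replicate 1, and its exons overlap those of ADRM1 on the opposite strand in GENCODE. LAMA1, the chain of the earliest embryonic laminin, had 233 and 252 CPM in siUPF1, against 272 and 264 CPM in siLuc. Its log2 fold change of -0.14 (SE 0.07) did not pass (edgeR adjusted p = 0.132), and it passed with the density trend removed (-0.17, adjusted p = 0.0331) and without siUPF1 replicate 2. The ratio of LAMA5 to LAMA1 per kb was 0.992 and 1.12 in siUPF1, against 0.731 and 0.708 in siLuc.

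LAMA2, the chain of muscle basement membrane, had 26.3 and 27.9 CPM in siUPF1, against 26.1 and 30.8 CPM in siLuc. LAMA4, the chain of vascular basement membranes, had 15.2 and 18.3 CPM in siUPF1, against 13.6 and 18.1 CPM in siLuc, so both genes had overlapping groups. The transcript length behind the LAMA4 level per kb is uncertain, since counts and RPKM gave 6033 bases in one siUPF1 library and 7310 in the other.

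LAMB3 and LAMA3 encode chains of the epithelial laminin that anchors stratified epithelia through integrin alpha6beta4, and LAMB3 had the largest log2 fold change of the 25 genes. LAMB3 had 79 and 88 counts, or 7.90 and 7.84 CPM, in siUPF1, against 37 and 30 counts, or 4.19 and 2.99 CPM, in siLuc. The groups were well apart for so low a gene (log2 fold change 1.14, SE 0.23, edgeR adjusted p = 9.96e-06). It passed under all 11 alternative fits, with adjusted p from 9.93e-06 to 0.0243 (highest without siLuc b). LAMA3 had 9.40 and 9.89 CPM in siUPF1, against 7.58 and 8.38 CPM in siLuc. Both siUPF1 libraries were higher, and the difference did not pass (log2 fold change 0.27, SE 0.19, edgeR adjusted p = 0.298).

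Per kb, LAMB3 and LAMA3 were the lowest of the laminin genes in siLuc, with means of 1.95 and 0.911 CPM per kb in siUPF1, against 0.888 and 0.753 CPM per kb in siLuc. Of 4 trophoblast markers, 3 were measured and summed to 21.1 and 22.2 CPM in siUPF1, against 16.9 and 15.8 CPM in siLuc, and GATA3 rose. The part of other cell types in the laminin values was not tested.

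The beta and gamma chains of the embryonic laminins, LAMB1, LAMB2 and LAMC1, did not pass. LAMB1 had 178 and 185 CPM in siUPF1, against 182 CPM in each siLuc library (log2 fold change -0.00, SE 0.07). LAMB2 had 159 and 164 CPM in siUPF1, against 165 and 160.0 CPM in siLuc (log2 fold change -0.01, SE 0.07), and LAMC1 had 327 and 313 CPM in siUPF1, against 336 and 321 CPM in siLuc (log2 fold change -0.04, SE 0.07). All 3 had overlapping groups. LAMC3, a gamma chain found at some neural and ciliated surfaces, had 53.6 and 62.3 CPM in siUPF1, against 70.2 and 75.0 CPM in siLuc. It fell (log2 fold change -0.32, SE 0.08, edgeR adjusted p = 0.000564), with no overlap, and did not pass with DESeq2 (adjusted p = 0.0502) or without siLuc b (adjusted p = 0.0819, the highest of its 11 alternatives, the lowest being 7.39e-06).

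Among gamma chains the ratio of LAMC3 to LAMC1 per kb was 0.212 and 0.257 in siUPF1, against 0.271 and 0.302 in siLuc. Among beta chains LAMB3 was 0.0639 and 0.0610 of LAMB1 in siUPF1, against 0.0331 and 0.0237 in siLuc.

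**Figure D4:**
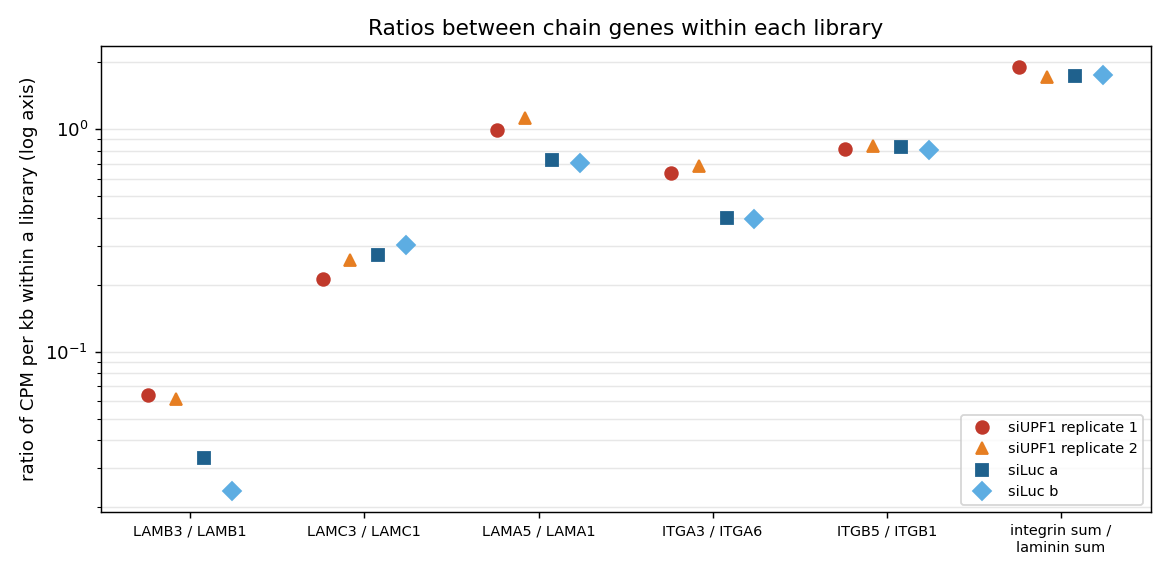
Ratios between chain genes within each library, on a log axis, from levels in CPM per kb, with 1 point per library. The ratios of LAMB3 to LAMB1, LAMA5 to LAMA1 and ITGA3 to ITGA6 are higher in both siUPF1 libraries, that of LAMC3 to LAMC1 is lower, and those of ITGB5 to ITGB1 and of the integrin sum to the laminin sum overlap.

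Receptor and ligand transcripts were also compared as sums. All integrin genes summed to 315 and 302 CPM per kb in siUPF1, against 297 and 292 CPM per kb in siLuc. The 10 laminin genes summed to 166 and 176 CPM per kb in siUPF1, against 171 and 167 CPM per kb in siLuc. The ratio of the sums was 1.90 and 1.72 in siUPF1, against 1.74 and 1.75 in siLuc, so the siUPF1 libraries lay on either side of the controls. Alpha genes summed to 187 and 185 CPM per kb in siUPF1, against 165 and 168 CPM per kb in siLuc, while beta genes summed to 129 and 118 CPM per kb in siUPF1, against 132 and 124 CPM per kb in siLuc. The sums are dominated by abundant genes, of which ITGB1 and ITGB5 sit in the densest read class. Because read density had an upper limit over all genes, these sums and their ratio may understate differences between abundant genes.

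Promoter windows were compared because AP-1 sites are textbook elements of genes of the epithelial laminin. RefSeq windows on GRCh38.p14, from 250 bases before to 50 bases after a transcript start, were at hand for 19 of the 25 members (26 windows). The AP-1 motif TGACTCA, searched on both strands, occurred in windows of 3 of these 19 genes, LAMA3, LAMB3 and ITGA5, and in 3 of 26 windows (11.5%). Among all tested genes with a window it occurred in 3.56% of windows and in windows of 4.87% of genes. The motif was chosen for genes of the epithelial laminin, among which are LAMA3 and LAMB3, so these shares are no test of an excess. Of the 3 genes with a match LAMB3 and ITGA5 rose and LAMA3 did not pass. Risers with a window and no match were LAMA5, ITGAE and ITGB8. The risers ITGA3, ITGA9 and ITGB4 were not searched. The windows with a match are shown 5′ to 3′ on the gene's strand, with the motif in capitals, so that the pair of matches in LAMA3, 1 on each strand, can be seen beside the single ones. They lie at chr18:23872770-23873069 (plus strand) for LAMA3, chr1:209651325-209651624 (minus strand, 1 of 3 windows) for LAMB3 and chr12:54419217-54419516 (minus strand) for ITGA5.
LAMA3: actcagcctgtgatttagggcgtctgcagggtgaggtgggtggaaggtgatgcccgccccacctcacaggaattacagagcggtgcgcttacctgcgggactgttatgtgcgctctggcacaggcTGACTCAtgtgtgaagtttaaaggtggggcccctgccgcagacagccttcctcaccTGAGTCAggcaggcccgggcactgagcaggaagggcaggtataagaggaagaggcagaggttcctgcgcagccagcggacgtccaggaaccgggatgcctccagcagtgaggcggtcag
LAMB3: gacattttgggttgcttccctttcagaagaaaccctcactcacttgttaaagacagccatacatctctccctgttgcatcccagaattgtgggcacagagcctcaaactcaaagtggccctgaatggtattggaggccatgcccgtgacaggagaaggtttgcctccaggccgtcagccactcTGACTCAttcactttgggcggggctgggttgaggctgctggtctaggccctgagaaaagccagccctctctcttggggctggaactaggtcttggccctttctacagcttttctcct
ITGA5: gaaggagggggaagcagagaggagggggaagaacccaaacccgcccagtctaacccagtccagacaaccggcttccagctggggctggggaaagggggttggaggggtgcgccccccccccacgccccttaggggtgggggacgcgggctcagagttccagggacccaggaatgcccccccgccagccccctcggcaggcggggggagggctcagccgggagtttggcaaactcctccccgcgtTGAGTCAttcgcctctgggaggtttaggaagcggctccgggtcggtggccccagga
A match describes the letters of a window and not binding.

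Transcript annotations were set beside the calls. In GENCODE release 29, 8 of the 25 members (32.0%) have an annotated transcript of the nonsense-mediated decay class, against 41.0% of 13471 tested genes matched by symbol. Among the 8 risers 3 have one (ITGA3, ITGA5 and LAMA5), and among the other 17 members 5 do. In the longest coding transcript the members had a median of 30 exons, against 9 over all matched genes. The median 3′ untranslated stretch of that transcript was 467 bases, against 970. For ITGA6 the annotated stretch is only 3 bases, and transcript models of this kind may lower the median. Exons of 14 members overlap a gene on the opposite strand.

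Partners of the members were followed in 4 lists. Of 20 tested basement membrane genes other than laminins, 4 rose (20.0%, near the 16.8% of all tested genes) and none fell (against 9.14%) with edgeR, and the median of their log2 fold changes was 0.01, against -0.01 over all genes. No gene of the list passed with DESeq2, and 1 riser was left with the density trend removed. Lower genes of the list at an unadjusted p under 0.05 numbered 1 with edgeR and 0 with DESeq2. Over all genes they numbered 2372 with edgeR, of 15557 tested, and 1270 with DESeq2. NID2, a linker of laminin and collagen IV, had 35.6 and 37.1 CPM in siUPF1, against 26.9 and 29.6 CPM in siLuc, a log2 fold change of 0.36 (SE 0.11, edgeR adjusted p = 0.00526). NTN4, a laminin-like netrin, had 6.90 and 5.52 CPM in siUPF1, against 2.94 and 4.09 CPM in siLuc (log2 fold change 0.80, SE 0.24, edgeR adjusted p = 0.00547). COL4A6, a collagen IV chain gene, had 73.6 and 86.8 CPM in siUPF1, against 64.8 and 70.6 CPM in siLuc (log2 fold change 0.25, SE 0.08, edgeR adjusted p = 0.00957). None of the 3 had overlapping groups, but NID2 did not pass without siLuc a (adjusted p = 0.189). NTN4 did not pass without siLuc a (adjusted p = 0.218) or siUPF1 replicate 1 (0.0662), and among the 4 fits with a library left out COL4A6 passed in that without siUPF1 replicate 1 alone, its value being 0.12 (adjusted p = 0.331) without siUPF1 replicate 2. The abundant collagen chain genes COL4A1 (0.04, SE 0.07) and COL4A2 (0.06, SE 0.07), added after their values were seen, did not pass.

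Of 17 tested integrin ligands other than laminins, 7 rose (41.2%, against 16.8% of all tested genes) and 1 fell (5.88%, against 9.14%). Their median log2 fold change was 0.09. THBS1, a matrix glycoprotein bound by several integrins, had 223 and 204 CPM in siUPF1, against 81.8 and 91.9 CPM in siLuc, a log2 fold change of 1.29 (SE 0.07, edgeR adjusted p = 1.24e-67). CYR61 (log2 fold change 0.81, SE 0.08, edgeR adjusted p = 2.51e-24) and CTGF (0.69, SE 0.07, 6.77e-20), matricellular proteins that bind integrins, also rose. All 3 passed under all 11 alternative fits. FN1, the fibronectin gene and ligand of ITGA5, had 404 and 384 CPM in siUPF1, against 410 and 398 CPM in siLuc, and did not pass. It was added after its values were seen.

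Of 36 tested genes of the cytoplasmic adhesion complex, 6 rose, 4 fell and 26 did not pass, and their log2 fold changes had a median of 0.04. The shares, 16.7% up and 11.1% down, were near the 16.8% and 9.14% of all tested genes. LIMS2, an adaptor of integrin-linked kinase, had 21.0 and 17.7 CPM in siUPF1, against 5.77 and 4.39 CPM in siLuc, a log2 fold change of 1.93 (SE 0.18, edgeR adjusted p = 1.75e-24). Its close paralog LIMS1, added after its values were seen, did not pass (0.02, SE 0.07), and reads that fit both could have been split by the counting. TNS2, a tensin, had 15.5 and 20.1 CPM in siUPF1, against 33.9 and 35.3 CPM in siLuc, a log2 fold change of -0.95 (SE 0.12, edgeR adjusted p = 2.27e-13). DST, a linker of integrin beta4 to keratin filaments, had 543 and 539 CPM in siUPF1, against 460 and 289 CPM in siLuc, so the siLuc libraries lay farther from each other than siLuc a lay from siUPF1. Its log2 fold change was 0.53 (SE 0.07, edgeR adjusted p = 1.15e-11), and it did not pass with DESeq2 (adjusted p = 0.356) or without siLuc b, where the value was 0.23 (adjusted p = 0.138), against 0.90 without siLuc a. DESeq2 called 4 of the 36 up and 2 down, where it called 8.35% and 3.05% of all genes. With the density trend removed 11 of the 36 rose and 4 fell, where 14.0% and 13.2% of all genes did.

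The last list held 8 genes, of laminin receptors outside the integrin family or, as with CD151, of a protein associated with a receptor. With edgeR 2 rose (25.0%, against 16.8% of all tested genes) and none fell (against 9.14%). The 8 log2 fold changes had a median of 0.07. With DESeq2 1 gene rose and 0 fell, where 8.35% and 3.05% of all genes did. In either test 0 lower genes of the list had an unadjusted p under 0.05. Over all genes 2372 did with edgeR, of 15557 tested, and 1270 with DESeq2. CD44, a receptor best known for hyaluronan, had 50.4 and 42.9 CPM in siUPF1, against 25.5 and 29.3 CPM in siLuc, a log2 fold change of 0.76 (SE 0.10, edgeR adjusted p = 2.54e-12). SDC2, a syndecan, had 123 and 106 CPM in siUPF1, against 95.0 and 93.5 CPM in siLuc (log2 fold change 0.28, SE 0.07, edgeR adjusted p = 0.000963), and did not pass without siLuc b (adjusted p = 0.0812) or without siUPF1 replicate 1, where the value was 0.17 (adjusted p = 0.0650). CD151, a tetraspanin that associates with integrin alpha3beta1, had 72.6 and 67.7 CPM in siUPF1, against 64.9 and 61.2 CPM in siLuc, and did not pass (log2 fold change 0.15, SE 0.08, edgeR adjusted p = 0.15).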

How the data were processed

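Total RNA of H9 cells gave 4 libraries, prepared by Illumina protocols as the labels state. The deposited table holds raw read counts per gene and, beside them, RPKM values that the authors had scaled for transcript length and library size. STAR, DESeq2 and the build hg19 are named in the submitters' processing notes, while the counter, its use of strand and its treatment of repeated reads are not given in the sources used here. The siLuc columns share one name, so 2 columns of control RPKM were not used, and the siUPF1 RPKM served only to derive transcript length. The main test was edgeR 4.0.16 (glmQLFit, glmQLFTest, two-sided) in R 4.3.3 on all counts, with TMM scaling, filterByExpr (15557 genes kept, 385 left out) and Benjamini-Hochberg adjustment over all tested genes. An SE is the log2 fold change divided by the square root of F, and the biological coefficient of variation was 4.47%. Replicate libraries were not copies of each other (chi-square per degree of freedom of their counts 2.85 for siUPF1 and 1.70 for siLuc, 8.65 and 9.26 across groups). Alternatives were DESeq2 1.42.0, limma-voom (limma 3.58.1), RLE factors, scaling by library size alone, no low-count filter, 5 CPM in 2 libraries, removal of the loess trend on reads per base (span 0.3), each library left out (the lone library of a group then being assumed to vary like the other group), an adjusted p of 0.1 and a fold of 1.5. All members but 1, which is not reported here, and, of each other list, the 3 genes with the smallest p are named. Promoter windows came from RefSeq (GRCh38.p14) and transcript classes from GENCODE release 29, matched by symbol. Members and lists were chosen with earlier results of these data known.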

Additional observations from a re-analysis of the deposited data

How the results depend on the processing

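No paired analysis was possible because both siLuc count columns carry the same name, so the replicate block could not be fitted. Integrin risers (6) numbered 3 with DESeq2, 1 with a fold of at least 1.5, and from 1 to 7 with 1 library left out, lowest without siLuc a. The 1 integrin faller became 0 with DESeq2 and with a fold of 1.5, and 0 to 1 with a library left out. Laminin risers stayed at 2 except 1 with a fold of 1.5, and the 1 laminin faller became 0 with DESeq2 and with a fold of 1.5, 2 with the density trend removed, and 0 to 2 with a library left out. Over all genes, risers numbered 1280 with DESeq2, 970 with a fold of 1.5 and 1444 to 2764 with a library left out, and fallers 467, 375 and 552 to 1522. UPF1 passed in all 11 alternative fits. Over 25 members and 11 fits, 275 values in all, 232 kept direction and side of the threshold, 24 lost a call, 4 gained one and 15 changed sign with no call on either side. The integrin sum was 1.05 times the control level with and without division by length, and the laminin sum 1.01 times with it and 1.03 times without it. Causes of these shifts were not tested. Depth limits LAMB3, LAMA3 and ITGA2B most, with means near or below 10 CPM.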
